A study of Rattus norvegicus with 115 samples.

Results

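The brain hemisphere opposite a 9L glioma was compared between 48 h and 6 h after synchrotron microbeam radiation therapy (MRT), in which the beam is split into an array of narrow, very high dose planes with low dose valleys between them. The comparison took every array whose title places it in the contralateral hemisphere of an MRT-treated rat at these times, 7 at 48 h and 9 at 6 h, which is 16 of the 115 arrays of the series. Each array came from a separate Fisher rat that carried a tumour grown from 100000 rat 9L gliosarcoma cells in the right caudate nucleus, and it measured total RNA from the opposite side, labelled normal brain, on an Affymetrix rat expression array. MRT was given 10 days after implantation at a peak dose of 400 Gy and a valley dose of 18 Gy with 90 keV X-rays. The protocol text speaks of 6 rats for MRT, whereas 9 arrays carry the 6 h label. The reference groups were contralateral hemispheres of tumour-bearing rats that were not irradiated (5 at 6 h and 4 at 48 h) and of tumour-bearing rats given a broad beam (BB, the whole field at a single dose of 17.4 Gy; 6 at 6 h and 3 at 48 h). Every rat, controls included, therefore carried a tumour, and whether the irradiated field reached the sampled hemisphere is not given in the sources used here. The 6 h and 48 h rats were different animals, so each value below is a difference between groups and not a change followed in one animal.

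Ionising radiation damages DNA and within hours activates the p53 transcription factor and, through NF-kB, the genes of inflammatory cytokines, chemokines and endothelial adhesion molecules, which call neutrophils and later monocytes to the tissue. Microglia, the resident phagocytes of the brain, lower the genes of their resting state when activated and can later take up debris, present antigen on MHC class II molecules and divide. Endothelial cells of brain vessels form the blood-brain barrier and carry the transporters that define it.

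Values are the deposited intensities on a log2 scale, so a difference of 1 is a doubling. Rises, falls and differences are on that scale, and only values marked as fold are linear ratios. A gene was represented by its brightest probe set and was called changed at an adjusted p under 0.05. The p-values came from limma, with Benjamini-Hochberg adjustment over all 31042 probe sets. The SE and p of a gene rest on 1 spread shared by all groups of the 56 contralateral arrays. They can understate the spread of an uneven group such as MRT at 6 h. Array medians of the intensities lay between 122 and 132 in the 16 MRT arrays, and each array correlated with the rest of its group at a mean r of 0.974 to 0.99. Among the controls, the untreated 48 h array of rat 18 stood apart, with a median of 165 against 123 to 125 in the other arrays of its group and a mean correlation with them of 0.902. That array also had a Cdkn2a level of 6.30 against 4.32 to 4.58 in the rest of its group, so values that rest on the untreated 48 h group are given with and without it. Among the MRT arrays at 6 h, rat 7 had the lowest mean over the inflammatory cytokine list (7.40, the next array 8.40), and rat 10 had the lowest correlation with its group (0.974). The labelled tissue matched its markers. Mbp, a myelin protein gene, lay between 13.89 and 14.33 and Rbfox3, a neuronal nuclear protein gene, between 11.51 and 12.40 in all 16 MRT arrays. Cdkn2a, which marks the 9L tumour cells in the marker list, lay between 4.09 and 4.86. Ttr, a choroid plexus transcript, ran from 12.77 to 14.18 at 6 h and from 10.66 to 14.19 at 48 h. The mean over the striatal neuron list ran from 8.21 to 10.31 and from 8.99 to 10.64, a wide spread within both groups. With the choroid plexus list mean added to the fit as a covariate 1617 genes were called for MRT, and with the striatal list mean 1484, against 1579 without. Beyond these fits, the part of this spread in the results was not tested.

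At 48 h, most inflammatory cytokine and neutrophil genes of the lists were lower than at 6 h, while most complement, phagocyte, mitotic, microglial and endothelial genes were higher. Of 14217 genes tested, 1579 were called (11.1%): 944 were higher at 48 h (6.64%) and 635 lower (4.47%). The split depended on scaling, since shifting all arrays to one median gave 865 higher and 1065 lower. Among the called genes, 151 rose and 95 fell by more than 1 on the log2 scale (1.06% and 0.668% of all genes). For 510 genes (3.59%) the 7 and the 9 arrays did not overlap, 349 of them higher (2.45%) and 161 lower (1.13%) at 48 h. Leaving rat 18, which is in neither MRT group, out of the shared fit raised the count of called genes to 2381 (16.7%), 1304 higher (9.17%) and 1077 lower (7.58%). The median difference over all genes was -0.01, and the largest rise was 2.69 (Slamf9). The largest falls were those of Ccl9 (4.67), Sele (4.52) and Cxcl10 (4.29), but levels under 5 (an intensity of 32) are dim, and the size and order of differences that reach them are uncertain: with values under 32 set to 32, Cxcl10 fell by 4.29, Ccl9 by 4.15 and Sele by 3.58.

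**Figure D1:**
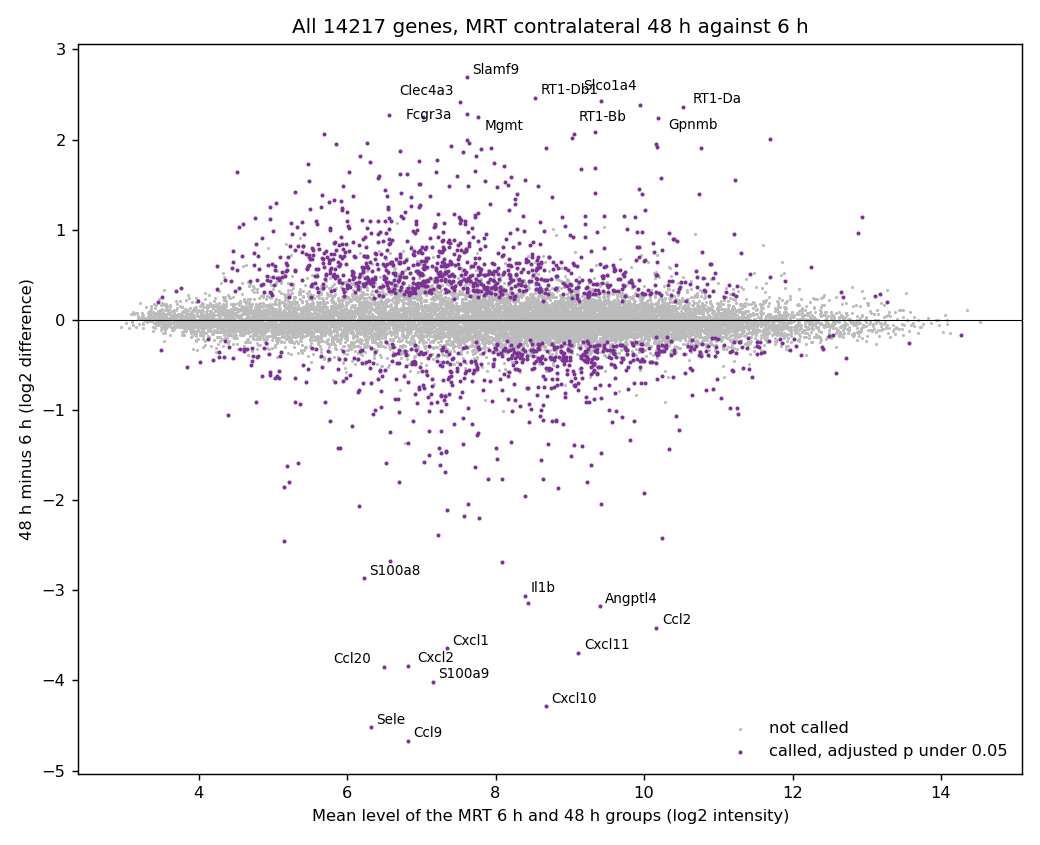
Difference between 48 h and 6 h after MRT (vertical axis, log2) against the mean level of both groups (horizontal axis, log2 intensity) for 14217 genes; purple points were called at an adjusted p under 0.05 and grey points were not. Ccl9, Sele and Cxcl10 lie lowest, at differences of -4.67, -4.52 and -4.29, and Slamf9 lies highest at 2.69.

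Most cytokine and chemokine genes fell. Of the 30 measured members of the list of cytokines, chemokines and NF-kB feedback genes, 25 fell and none rose (at an unadjusted p under 0.05, limma gave 26 lower and 0 higher), with a median difference of -1.72 against -0.01 over all genes. Sele, the endothelial E-selectin on which leukocytes roll, had levels of 7.53, 8.68 and 9.28 (lowest, median and highest) in the 9 arrays at 6 h and 3.81, 4.09 and 4.39 in the 7 arrays at 48 h. The groups lay far apart, and at 48 h the levels were near those of untreated hemispheres, which ran from 3.17 to 3.70 at 6 h and from 3.32 to 3.81 at 48 h, rat 18 included. The difference was -4.52 ± 0.16 (SE; adjusted p = 8.24e-28), with every 48 h array below every 6 h array. All 48 h levels were dim, and with values under 32 set to 32 the difference was -3.58 and still called, so no exact fold is given. Cxcl10, an interferon-induced chemokine for T cells, had levels of 9.73, 10.87 and 11.32 at 6 h and 5.46, 6.64 and 7.65 at 48 h. Its fall of 4.29 (SE 0.31, adjusted p = 3.48e-15) left 48 h arrays spread over more than 2 units, all above the untreated range of 4.32 to 5.13 (6 h).

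Ccl2, the main monocyte chemokine, fell less far. Its levels were 10.34, 12.09 and 12.49 at 6 h and 8.00, 8.44 and 8.87 at 48 h, a difference of -3.41 ± 0.33 (SE; adjusted p = 2.69e-11). All 7 arrays at 48 h remained above the untreated arrays of 48 h, which lay between 4.25 and 5.17 with rat 18 and up to 4.81 without it. The neutrophil chemokines Cxcl1 and Cxcl2 fell by 3.65 and 3.84, and their 48 h levels (5.25 to 5.73 and 4.75 to 5.09) lay close to the untreated levels at 6 h (5.13 to 5.55 and 4.52 to 5.21). Ccl9, a CC chemokine outside the list, went from 7.07, 9.34 and 10.01 at 6 h to 4.39, 4.46 and 4.64 at 48 h (difference -4.67 ± 0.23 SE, adjusted p = 9.37e-22), levels that were dim in all 48 h arrays (-4.15 with values under 32 set to 32). Il1b, the gene of interleukin 1 beta, fell by 3.06 (SE 0.27) from 7.48, 10.30 and 10.55 to 6.48, 6.89 and 7.30, and stayed above the untreated 6 h range of 5.55 to 6.02. Ccl20 fell by 3.85 and Cxcl11 by 3.70, with no overlap in either gene. The Ccl20 difference ran from -4.38 to -3.42 over the alternative settings. Nfkbia, which encodes the inhibitor that NF-kB itself induces, went from 9.93, 11.03 and 11.44 to 8.44, 9.18 and 9.63, a difference of -1.93 ± 0.17 (SE; adjusted p = 2.62e-12). The array of rat 7 was the lowest of the 6 h group for Sele, Cxcl10, Ccl2, Ccl9 and Il1b. Without that array, 26 of the 30 list members fell.

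The promoters of Cxcl10 and Nfkbia are shown because the NF-kB consensus was frequent in the cytokine list, most of which fell. The lists were chosen by known function, so the motif shares here and below describe the lists and are no evidence on the changes. RefSeq promoters (GRCr8) were matched by symbol for 11733 of the 14217 genes, and the 250 bases before each start site were searched on both strands. The NF-kB consensus occurred in 14 of the 22 matched cytokine list members (63.6%), against 977 of the 11733 measured genes (8.33%) and 2117 of all 33469 promoters of the table (6.33%). Sele had no match in this window. Capitals mark the matches, and 2 of the 3 in Cxcl10 overlap each other.
Cxcl10, GRCr8 chr14:15988816-15989065, plus strand: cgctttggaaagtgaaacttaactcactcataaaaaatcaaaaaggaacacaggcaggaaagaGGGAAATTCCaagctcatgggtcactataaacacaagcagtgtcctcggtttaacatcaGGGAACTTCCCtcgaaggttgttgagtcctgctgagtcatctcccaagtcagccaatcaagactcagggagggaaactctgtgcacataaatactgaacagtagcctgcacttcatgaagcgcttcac
Nfkbia, GRCr8 chr6:78597073-78597322, minus strand: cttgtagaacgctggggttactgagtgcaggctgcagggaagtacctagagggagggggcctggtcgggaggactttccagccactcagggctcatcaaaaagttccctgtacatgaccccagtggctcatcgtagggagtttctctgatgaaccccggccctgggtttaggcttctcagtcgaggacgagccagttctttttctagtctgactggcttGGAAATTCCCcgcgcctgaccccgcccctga

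**Figure D2:**
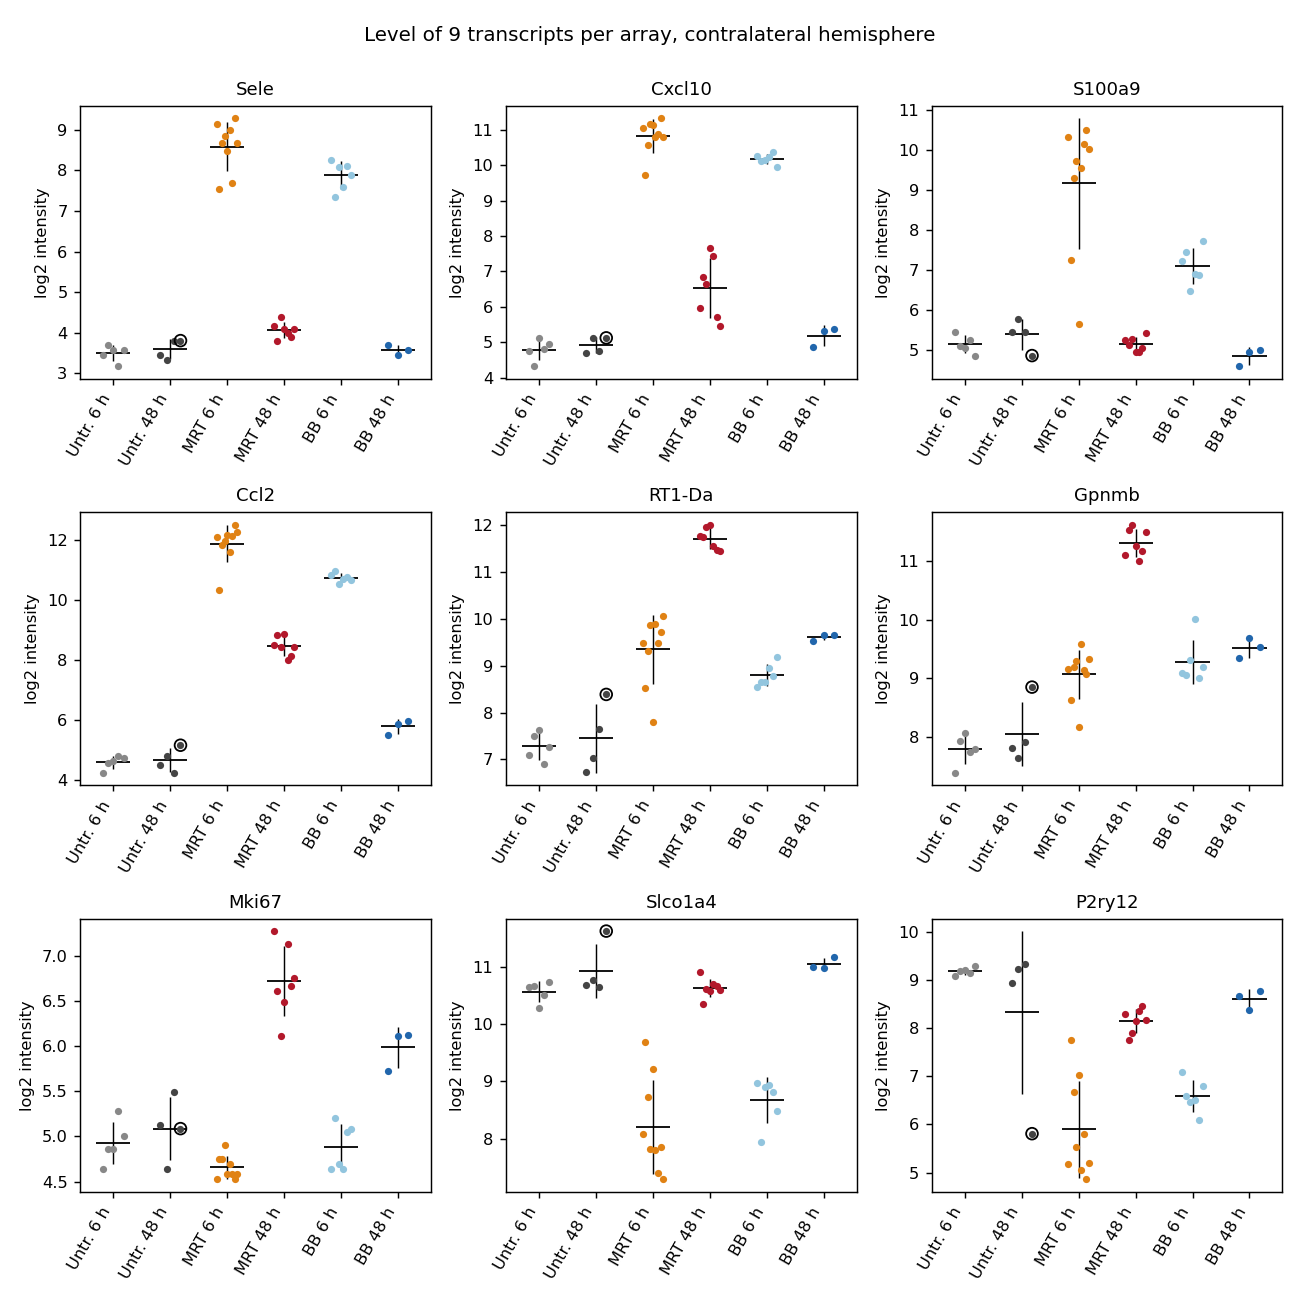
Level of 9 transcripts (log2 intensity) in each contralateral array of untreated, MRT and BB rats at 6 h and 48 h; horizontal lines are group means, vertical lines 1 SD, and the ringed point is untreated rat 18. Sele, Cxcl10, S100a9 and Ccl2 are high at 6 h after MRT and lower at 48 h, RT1-Da, Gpnmb and Mki67 have their highest group means at 48 h after MRT, and Slco1a4 and P2ry12 are lower at 6 h than at 48 h after MRT.

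Most neutrophil markers fell, with a large spread at 6 h. Of 12 measured neutrophil markers 8 fell and none rose (9 lower and 0 higher at an unadjusted p under 0.05 by limma), with a median difference of -0.66. S100a9, a calcium-binding protein abundant in neutrophils, had levels of 5.64, 9.73 and 10.49 at 6 h and 4.95, 5.13 and 5.43 at 48 h. The lowest 6 h arrays were rat 10 at 5.64 and rat 7 at 7.26, while the other 7 lay between 9.30 and 10.49. The difference was -4.02 ± 0.36 (SE; adjusted p = 2.33e-12), and the untreated 6 h arrays ran from 4.86 to 5.46. When only the MRT arrays of both times were fitted, the adjusted p of S100a9 was 5.82e-05 (limma). Its partner S100a8 fell by 2.87 (SE 0.29), from 5.00, 8.08 and 8.77 to 4.52, 4.86 and 4.91. All its 48 h levels were dim, and its difference ran from -3.49 to -2.66 over the alternative settings. Il1r2, a decoy receptor for interleukin 1, fell by 1.80 with overlapping arrays, and its difference ran from -2.24 to -1.21 over the alternative settings. The mean over the 12 markers ran from 4.96 to 6.22 at 6 h and from 4.65 to 4.95 at 48 h. The 48 h means lay under 5, so the size of the list difference is uncertain. Since the RNA came from whole tissue, fewer cells of a type and less RNA per cell cannot be told apart here or below.

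Part of the immediate early and glucocorticoid-responsive genes fell. In the immediate early gene list, 9 of 26 fell and 1 rose, with a median of -0.56. Maff, a small Maf transcription factor, had levels of 7.04, 8.53 and 9.31 at 6 h and 5.93, 6.36 and 6.54 at 48 h (difference -2.11 ± 0.25 SE, adjusted p = 6.23e-09). Fosl1, an AP-1 subunit, fell by 1.47 and Gadd45b by 1.39. Klf2, an endothelial transcription factor induced by blood flow, was the member that rose (0.83 ± 0.17 SE), from 7.68 to 8.35 at 6 h to 8.61 to 9.34 at 48 h; with the mean of all its probe sets its adjusted p was 0.223. Of 23 glucocorticoid-responsive genes 11 fell and none rose (14 lower and 0 higher at an unadjusted p under 0.05 by limma), with a median of -0.37. Angptl4, a secreted inhibitor of lipoprotein lipase, fell by 3.18 (SE 0.19, adjusted p = 2.69e-18), from 9.85, 11.13 and 11.65 to 7.62, 7.75 and 8.04, which overlapped the untreated 6 h range of 7.81 to 8.35. Errfi1, a feedback inhibitor of the EGF receptor, fell by 1.00. Among 22 hypoxia genes 4 fell, including Adm, the vasodilator peptide adrenomedullin (-1.24 ± 0.24 SE), and Pfkfb3, a glycolytic regulator (-0.91). In the heat shock list 2 of 15 fell (4 without rat 18 in the fit), led by the co-chaperone Bag3 (-1.12). The called share, all falls, was 18.2% of the hypoxia list and 13.3% of the heat shock list. Of all genes 11.1% were called, 4.47% as falls.

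Of 33 measured interferon-response genes, 8 fell and 3 rose, beside 4.47% and 6.64% over all genes, with a median difference of -0.23. Without the array of rat 10, 12 fell, and without rats 7 and 10, 14 fell, with medians of -0.34 and -0.41 and 3 rises in both. Gbp2, an interferon-gamma-induced GTPase, fell from 10.54, 11.67 and 11.92 to 8.78, 8.97 and 9.51 (difference -2.42 ± 0.29 SE, adjusted p = 7.24e-09) and at 48 h still exceeded the untreated 6 h arrays, at 5.36 to 6.17. Ifit3, an antiviral protein of the type I interferon response, fell by 2.18 (SE 0.28). Mx1, an antiviral GTPase of the same response, had levels of 4.81, 7.32 and 8.03 at 6 h and 7.54, 8.23 and 9.33 at 48 h. The Mx1 groups overlapped, and its rise of 1.15 ± 0.30 (SE; adjusted p = 0.00869) was not called when only the MRT arrays were fitted (adjusted p = 0.0677). Bst2, which tethers budding virus particles, rose by 0.85 and Ifi27 by 0.59, both without overlap. The interferon-stimulated response element (ISRE), searched as GAAA, any 2 bases and GAAA again, occurred in 16 of the 26 promoters matched in this list (61.5%), against 2.65% of measured genes.

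Several MHC class II genes rose. In the antigen presentation list 8 of 21 measured members rose and 2 fell, with a median of 0.16. RT1-Da, the alpha chain of a rat class II molecule, had levels of 7.79, 9.49 and 10.06 at 6 h and 11.45, 11.76 and 12.01 at 48 h. All 48 h arrays lay more than 1 unit above every 6 h array, and untreated arrays at 6 h ran from 6.91 to 7.63. The difference was 2.36 ± 0.30 (SE), a 5.13-fold higher level (adjusted p = 4.69e-08). RT1-Bb and RT1-Ba, the beta and alpha chains of the second class II molecule, rose by 2.38 (SE 0.29) and 2.08 (SE 0.31) in their brightest probe sets. The other 3 RT1-Ba probe sets were not called, at differences of 0.21, -0.16 and -0.04, and the mean over all 4 gave 0.52 (adjusted p = 0.000699). A dim second RT1-Bb probe set gave -0.10 and a second RT1-Db1 probe set 1.81, so the size of the class II differences depends on the probe set. RT1-Db1, the partner of RT1-Da, rose by 2.46, from 6.19, 7.46 and 8.15 to 9.50, 9.81 and 10.13. RT1-DMb, a chain of the chaperone that loads peptides onto class II, went from 7.74, 7.96 and 8.43 to 9.90, 10.02 and 10.37 (difference 2.07 ± 0.14 SE, adjusted p = 5.45e-16). At 6 h every array but that of rat 7 (8.43) lay below the untreated 6 h range of 8.34 to 9.01. Tap1, a transporter that supplies peptides to class I molecules, fell by 0.74 (SE 0.20), or by 0.39 as the mean of its probe sets. MHC genes are a family of close paralogs and alleles, so signal may be shared between their probe sets.

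The class II promoters of RT1-Da and RT1-Bb are printed because class II genes were among the largest rises; their CCAAT boxes are in capitals, as CCAAT or, on the other strand, ATTGG. This box occurred in 11 of 18 matched antigen presentation promoters (61.1%) and in 35.1% of the measured genes.
RT1-Da, GRCr8 chr20:4515165-4515414, plus strand: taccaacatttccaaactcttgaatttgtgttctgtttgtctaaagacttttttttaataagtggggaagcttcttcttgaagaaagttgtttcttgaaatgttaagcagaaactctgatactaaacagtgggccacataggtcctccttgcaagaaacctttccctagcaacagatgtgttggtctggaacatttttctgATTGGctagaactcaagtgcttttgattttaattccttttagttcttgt
RT1-Bb, GRCr8 chr20:4604119-4604368, minus strand: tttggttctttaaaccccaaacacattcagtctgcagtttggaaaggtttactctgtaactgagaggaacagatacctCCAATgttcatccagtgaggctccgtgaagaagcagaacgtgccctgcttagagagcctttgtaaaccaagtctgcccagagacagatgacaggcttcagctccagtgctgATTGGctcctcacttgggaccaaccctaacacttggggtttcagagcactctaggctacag

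Many phagocyte genes rose. Of 28 measured phagocyte activation genes 15 rose and 3 fell, with a median of 0.58. Gpnmb, a lysosomal glycoprotein of lipid-laden phagocytes, had levels of 8.18, 9.16 and 9.58 at 6 h and 11.00, 11.25 and 11.62 at 48 h (difference 2.24 ± 0.20 SE, adjusted p = 2.08e-12). Its untreated arrays lay between 7.39 and 8.07 at 6 h. Cd68, a lysosomal membrane protein of macrophages, went from 6.09, 6.64 and 7.16 to 8.19, 8.72 and 8.86, a rise of 1.96 (SE 0.18). Fcgr3a, a low affinity receptor for antibody-coated particles, rose by 2.28 (SE 0.24), from 6.11, 6.57 and 6.74 to 8.49, 8.77 and 8.90. The largest rise in the data was that of Slamf9, a SLAM-family surface receptor of myeloid cells, from 5.88, 6.23 and 6.83 to 8.66, 8.97 and 9.36 (difference 2.69 ± 0.18 SE, adjusted p = 7.59e-17). Clec4a3 and Clec12a, C-type lectin receptors of myeloid cells, rose by 2.42 (SE 0.22) and 2.28 (SE 0.20). Lgals3, the galectin of activated phagocytes, rose by 1.95 and Mmp12, macrophage elastase, by 1.95, from 4.64, 4.81 and 5.49 to 6.44, 6.93 and 7.25. Most Mmp12 levels at 6 h were dim, and its rise ran from 1.76 to 2.03 over the alternative settings. Cd14, the co-receptor for bacterial lipopolysaccharide, and Plek, a platelet and leukocyte signalling protein, fell by 1.07 and 0.85.

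Complement genes and several macrophage markers also rose. In the complement list 8 of 13 rose and none fell (9 higher and 1 lower at an unadjusted p under 0.05 by limma), with a median of 0.67. Serping1, the inhibitor of C1, rose by 1.45 (SE 0.17), from 8.60, 9.26 and 9.55 to 10.35, 10.52 and 11.23, and C1s, the protease it inhibits, rose by 1.15. Itgam, the alpha chain of complement receptor 3, rose by 0.97. Of 20 macrophage and monocyte markers 9 rose and 4 fell, with a median of 0.43; without the array of rat 10, 8 rose and 5 fell, with a median of 0.24, and without rats 7 and 10, 8 rose and 6 fell, with a median of 0.22. Mrc1, the mannose receptor of perivascular macrophages, had levels of 4.95, 5.25 and 6.15 at 6 h, below the untreated 6 h range of 6.25 to 6.39 in every array, and of 6.91, 7.21 and 7.31 at 48 h, above it in every array (difference 1.75 ± 0.19 SE, adjusted p = 1.32e-09). Lyve1, also carried by perivascular macrophages, rose by 1.19. Ccr1, a chemokine receptor of monocytes and neutrophils, fell by 1.80. Ccr2, the receptor for Ccl2, was dim (3.70 to 4.95 in the MRT arrays) and had a difference of -0.41 that vanished when intensities under 32 were set to 32. Markers of the other leukocytes gave few calls, beside 11.1% of all genes. Of 23 T and NK cell markers 1 fell, Ccl5 (-0.83 ± 0.23 SE). None of 10 B and plasma cell markers was called (2 higher and 0 lower at an unadjusted p under 0.05 by limma).

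Microglial genes of the resting state were low at 6 h and higher at 48 h. Of 10 measured homeostatic microglia markers 9 rose and 1 fell, with a median of 0.98. P2ry12, the purinergic receptor that marks resting microglia, ran at 9.08 to 9.28 in untreated hemispheres at 6 h. After MRT it had levels of 4.86, 5.52 and 7.75 at 6 h and 7.75, 8.17 and 8.46 at 48 h. Every MRT array of either time lay below the untreated 6 h arrays, and the rise between the times was 2.25 ± 0.31 (SE; adjusted p = 2.93e-07). The highest 6 h array was again that of rat 7, at 7.75, followed by rat 10 at 7.02. A dimmer second P2ry12 probe set gave a smaller rise of 1.20 ± 0.15 (SE). Csf1r, the receptor on which microglia depend for survival, rose by 1.15 (SE 0.15), and its 48 h levels (8.63, 8.95 and 9.15) overlapped the untreated 6 h range of 8.70 to 9.06. Fcrl2, an Fc receptor-like gene of the microglia list, rose by 1.90 (SE 0.14) to 8.57, 8.75 and 9.14, above the untreated 6 h range of 7.30 to 7.81. Trem2, a lipid receptor of microglia, rose by 1.17. Mertk, a receptor for the uptake of dying cells, was the member that fell (-0.34 ± 0.11 SE), a call lost in 14 of 31 alternative settings.

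**Figure D3:**
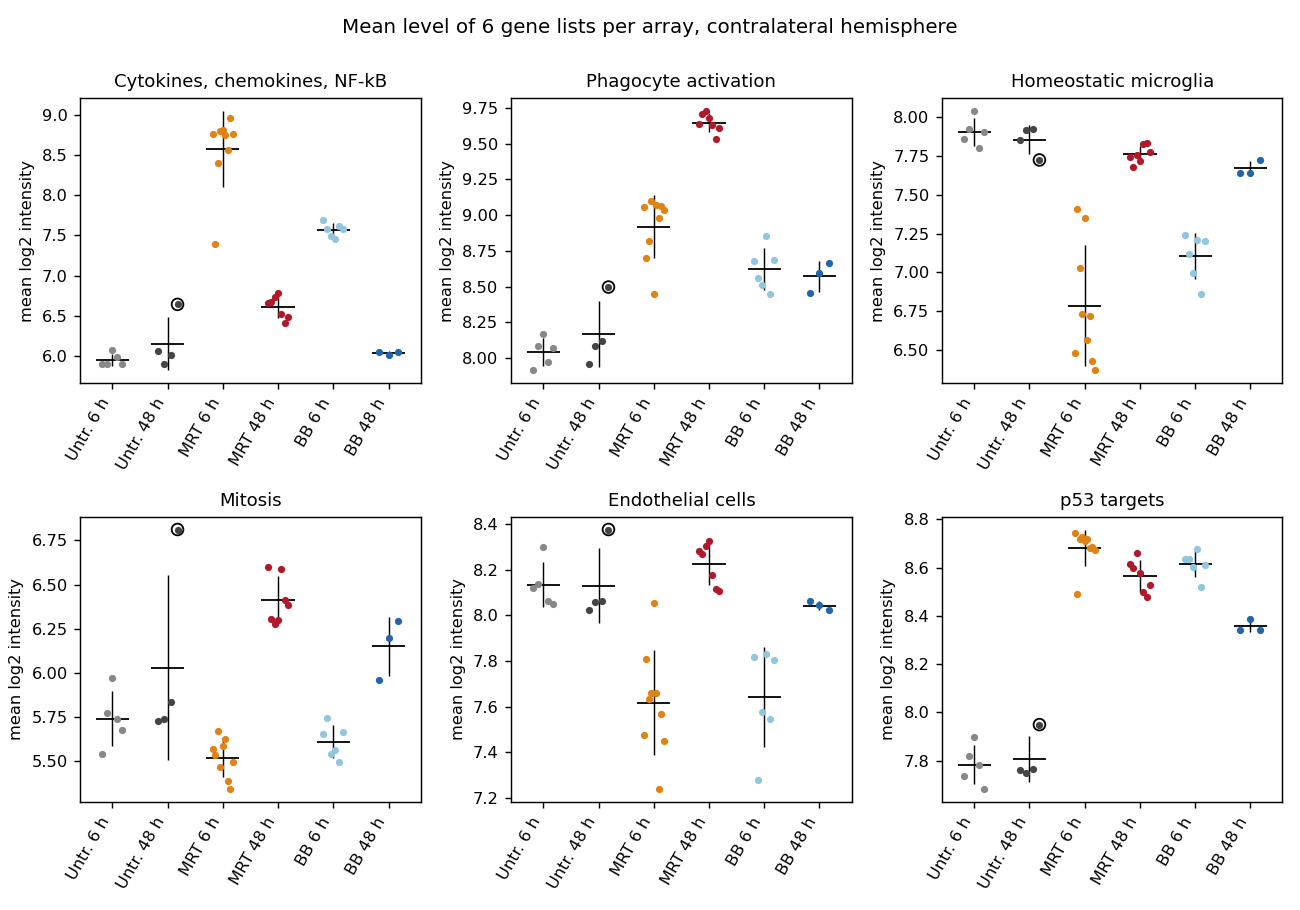
Mean log2 intensity over the genes of 6 lists in each contralateral array of untreated, MRT and BB rats at 6 h and 48 h; horizontal lines are group means, vertical lines 1 SD, and the ringed point is untreated rat 18. After MRT the cytokine list is higher at 6 h than at 48 h, the phagocyte, microglia, mitosis and endothelial lists are higher at 48 h, and the p53 list is above the untreated arrays at both times.

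Many blood-vessel transcripts were higher at 48 h. Of 24 endothelial markers 14 rose and 6 fell, with a median of 0.77. Slco1a4, an organic anion transporter of the blood-brain barrier, lay between 10.29 and 10.74 in untreated hemispheres at 6 h. After MRT it had levels of 7.29, 7.85 and 9.69 at 6 h and 10.36, 10.61 and 10.91 at 48 h. The 48 h arrays overlapped the untreated range while every 6 h array was below it, and the difference was 2.43 ± 0.21 (SE), 5.37-fold (adjusted p = 4.26e-13). A second Slco1a4 probe set gave 2.36 ± 0.20 (SE). Emcn, the endothelial sialomucin endomucin, went from 5.83, 6.43 and 7.71 to 8.37, 8.56 and 9.00 (1.99 ± 0.17 SE) against an untreated 6 h range of 8.33 to 8.47. Tek, the receptor for angiopoietins, rose by 1.49 (SE 0.13). Angpt2, a Tek ligand that destabilises vessels, fell by 0.93 (SE 0.22), from 6.94, 9.21 and 9.50 to 7.81, 7.92 and 8.28, still above the untreated 6 h range of 5.55 to 6.17. Mfsd2a, a lipid transporter of the barrier, and Esam, an endothelial adhesion molecule, fell by 0.57 and 0.45. Of 15 pericyte and vascular muscle markers 5 rose, among them Abcc9 (0.80), Anpep (0.67) and Myh11 (0.56), with means over their probe sets of 0.52 for Abcc9 and 0.35 for Myh11, and Des, the muscle filament desmin, fell by 0.81.

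Most mitotic genes rose, beside 6.64% of all genes. Of 28 measured mitosis genes 18 rose and none fell (23 higher and 0 lower at an unadjusted p under 0.05 by limma), with a median of 0.73. Mki67, the proliferation antigen Ki-67, had levels of 4.52, 4.58 and 4.91 at 6 h and 6.11, 6.67 and 7.28 at 48 h. The 48 h arrays were spread over more than 1 unit but did not overlap the 6 h arrays, nor the untreated 6 h range of 4.64 to 5.29. The Mki67 difference was 2.06 ± 0.37 (SE; adjusted p = 4.95e-05 by limma). All its 6 h levels were dim. With values under 32 set to 32 its adjusted p was 0.000978 (limma), and its smallest rise over the alternative settings was 1.72. Prc1, which bundles the microtubules of the central spindle, rose by 1.62 (SE 0.27), from 5.46, 5.83 and 6.32 to 7.20, 7.45 and 7.98. Cdkn3, a phosphatase of cyclin-dependent kinases, rose by 1.49. Genes of DNA replication showed fewer calls: 4 of 28 rose, among them Mcm6 (0.87) and Mcm2 (0.68), subunits of the replicative helicase, and none fell (10 higher and 1 lower at an unadjusted p under 0.05 by limma). Without the array of rat 7, 17 of the mitosis genes rose, and without rats 7 and 10 16 did.

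The promoters of Mki67 and Prc1 are shown for the CHR element of cell-cycle genes, TTTGAA, in capitals, found in 11 of 23 matched mitosis promoters (47.8%) and in 10.9% of the measured genes. CCAAT occurred in 78.3% of the mitosis promoters, and in Mki67 1 CCAAT match on the opposite strand overlaps a CHR match.
Mki67, GRCr8 chr1:199952594-199952843, minus strand: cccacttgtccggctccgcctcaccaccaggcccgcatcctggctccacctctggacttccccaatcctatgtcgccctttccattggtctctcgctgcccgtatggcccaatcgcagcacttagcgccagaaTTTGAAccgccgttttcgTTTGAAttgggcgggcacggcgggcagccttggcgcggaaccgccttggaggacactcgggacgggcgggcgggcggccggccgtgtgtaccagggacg
Prc1, GRCr8 chr1:143659231-143659480, plus strand: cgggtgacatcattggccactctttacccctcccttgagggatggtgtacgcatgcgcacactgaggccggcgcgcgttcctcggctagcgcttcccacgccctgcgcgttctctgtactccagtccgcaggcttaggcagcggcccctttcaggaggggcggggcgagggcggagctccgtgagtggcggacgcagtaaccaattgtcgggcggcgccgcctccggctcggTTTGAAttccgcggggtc

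Of 24 measured p53 targets 3 fell and none rose (6 lower and 1 higher at an unadjusted p under 0.05 by limma), with a median of -0.10. This is 12.5% called, all of them falls. Over all genes 11.1% were called, 6.64% higher and 4.47% lower. Without rats 7 and 10, 5 fell, and without rat 18 in the fit 5 fell and 1 rose. Cdkn1a, the cyclin-dependent kinase inhibitor p21, which was singled out after its values were seen, had levels of 10.74, 11.40 and 11.97 at 6 h and 10.90, 11.21 and 11.79 at 48 h. Both groups lay above its untreated 6 h range of 6.81 to 8.06, and the difference between the times was -0.05 with a 95% interval from -0.40 to 0.29. Aen, a p53-induced nuclease, fell by 0.50 (SE 0.10), from 8.81, 9.29 and 9.55 to 8.52, 8.77 and 9.01, against 6.94 to 7.35 in untreated arrays at 6 h. Fas, the death receptor, had a difference of -0.78 (SE 0.15) in its brightest probe set, whereas a dimmer probe set gave 0.48 (adjusted p = 0.0212), so its direction rests on the probe set.

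Among DNA repair genes, 7 of 27 rose and 2 fell (6.64% and 4.47% over all genes), with a median of 0.03. Mgmt, which removes alkyl groups from guanine in DNA, had levels of 6.34, 6.64 and 6.97 at 6 h and 8.61, 8.87 and 9.37 at 48 h. Those at 48 h lay far above the untreated 6 h range of 5.58 to 6.55, and the difference of 2.25 ± 0.12 (SE) was 4.74-fold (adjusted p = 4.63e-21). Fancd2, of the interstrand crosslink repair pathway, rose by 0.71 and Prkdc, the DNA-dependent protein kinase, by 0.50. In the Nrf2 and metal response list 2 of 20 rose and 6 fell. Ephx1, microsomal epoxide hydrolase, rose from 8.90, 9.36 and 9.57 to 10.28, 10.65 and 11.24 (difference 1.40 ± 0.16 SE, adjusted p = 1.5e-09), and Slc7a11, the cystine importer, by 0.75. Sod2, the mitochondrial superoxide dismutase, which is also an NF-kB target, fell by 1.05, and Gclc and Txnrd1, of glutathione synthesis and thioredoxin reduction, by 0.50 and 0.53 (Txnrd1 by 0.87 as the mean of its probe sets).

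Astrocyte genes showed selected changes, where 6.64% of all genes were higher and 4.47% lower. Gfap, the astrocyte intermediate filament, had levels of 11.92, 12.48 and 12.66 at 6 h and 13.37, 13.46 and 13.69 at 48 h, with no overlap, a rise of 1.14 ± 0.20 (SE; adjusted p = 3.59e-05). Vim, the filament vimentin of reactive astrocytes and of vessel and immune cells, went from 10.47, 10.71 and 11.13 to 12.47, 12.75 and 12.87, a rise of 2.01 (SE 0.22). In the reactive astrocyte list 4 of 18 rose and 6 fell, with Aspg rising by 0.75 and Steap4, an iron reductase, falling by 2.45 (SE 0.26), or by 1.47 with values under 32 set to 32, since its 48 h levels were dim. Of 15 astrocyte markers 2 rose and 2 fell, including Aldoc, an aldolase of astrocytes (-0.42). Oligodendrocyte precursors gave 1 rise and 3 falls among 14 markers (5 falls without rat 18 in the fit): Pdgfra, their growth factor receptor, fell by 0.88 (SE 0.17), from 9.26, 9.65 and 10.48 to 8.69, 8.90 and 9.05, below the untreated 6 h range of 10.15 to 10.59 in every 48 h array. Of 18 oligodendrocyte markers 1 rose and 3 fell (5 without rat 18), led by Mal, a myelin proteolipid (-0.98 ± 0.19 SE). Mbp had a difference of -0.15 in its brightest probe set (adjusted p = 0.0806 by limma). Its other probe sets gave -0.79 (adjusted p = 0.0162) and 0.01 (adjusted p = 0.976), so whether Mbp fell rests on the probe set. Cholesterol synthesis genes fell in 9 of 20 cases and rose in none (10 lower and 0 higher at an unadjusted p under 0.05 by limma), with a median of -0.27. The falls numbered 6 without BB arrays in the fit and 11 without rat 18. Msmo1, a sterol oxidase, went from 11.14, 11.32 and 11.48 to 10.37, 10.53 and 10.85 (-0.76 ± 0.09 SE), and Dhcr7, the last enzyme of the pathway, fell by 0.54.

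Some matrix, meningeal and ependymal genes rose. In the matrix list 7 of 28 rose and 2 fell (4 without the array of rat 10). The shares over all genes were 6.64% higher and 4.47% lower. Tgfbi, a TGF-beta-induced adhesion protein, went from 6.63, 7.13 and 7.55 to 8.42, 8.60 and 8.85 (1.54 ± 0.27 SE), Mmp2, a gelatinase, rose by 1.48 (0.70 as the mean of its probe sets) and Plau, urokinase, by 1.26. Of 16 markers of meninges and fibroblasts 5 rose and 2 fell; Lum, a collagen-binding proteoglycan, rose by 1.09 and Mgp, matrix Gla protein, fell by 0.73. In the list of ependymal markers 6 of 11 rose and none fell (8 higher and 0 lower at an unadjusted p under 0.05 by limma), among them the cilium genes Tekt1 (0.78) and Rsph1 (0.73). Without BB arrays in the fit, 4 ependymal markers rose. The difference from the untreated change was called for 1 ependymal marker, and for 0 without rat 18. The ependymal list mean at 48 h ran from 6.00 to 6.67 after MRT. In untreated rats at 48 h it ran from 5.82 to 6.69, or to 6.43 without rat 18. The choroid plexus list, from the neighbouring ventricular tissue, had no call among 18 (1 higher and 0 lower at an unadjusted p under 0.05), and its mean ran from 7.16 to 8.46 at 6 h and from 6.56 to 8.58 at 48 h. With the choroid plexus list mean as a covariate none of the named genes lost its call. Beyond that fit, the part of dissection in the ependymal and meningeal results was not tested.

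Most neuronal lists and the oxidative phosphorylation list gave few or no calls, where 11.1% of all genes were called (6.64% higher, 4.47% lower). General neuronal markers, at 9.09%, lay close to that share. The circadian (15%), 9L tumour cell (18.8%) and cell-cycle entry and neuroblast (26.3%) lists lay above it. None was called among 26 synaptic receptor and channel genes (3 higher and 1 lower at an unadjusted p under 0.05 by limma), 19 cortical and hippocampal markers (2 and 0), 14 thalamic and hypothalamic markers (1 and 0), 29 oxidative phosphorylation genes (0 and 4) or 6 erythroid genes (0 and 0). Of 22 general neuronal markers 2 fell, Tubb3, a neuronal tubulin (-0.54, or -0.26 as the mean of its probe sets), and Nefl, the light neurofilament (-0.32). Of 16 striatal projection neuron markers 1 rose, the transcription factor Foxp1 (0.46, a call lost in 2 of 31 alternative settings), and all 16 had positive differences with a median of 0.47, beside the wide range of the list mean given above. Without rat 18 in the fit, 3 oxidative phosphorylation genes and 3 neurotrophic and plasticity genes fell. Of 22 neurotrophic and plasticity genes 1 fell with all arrays, Nrn1 (-0.39, lost in 2 of 31 settings), and in the cell-cycle entry and neuroblast list 3 of 19 rose (1 without BB arrays in the fit) and 2 fell, with Tubb2b at 0.52 and Egfr at -0.54. The circadian list had 1 rise and 2 falls among 20 (5 falls without rat 18), with Per3 at 0.86 (0.44 as the mean of its probe sets) and Bhlhe40, a light- and stress-responsive repressor of the clock, at -0.87. Of 16 markers of 9L tumour cells 1 rose and 2 fell, and the list mean ran from 5.63 to 5.90 at 6 h and from 5.52 to 5.89 at 48 h.

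**Figure D4:**
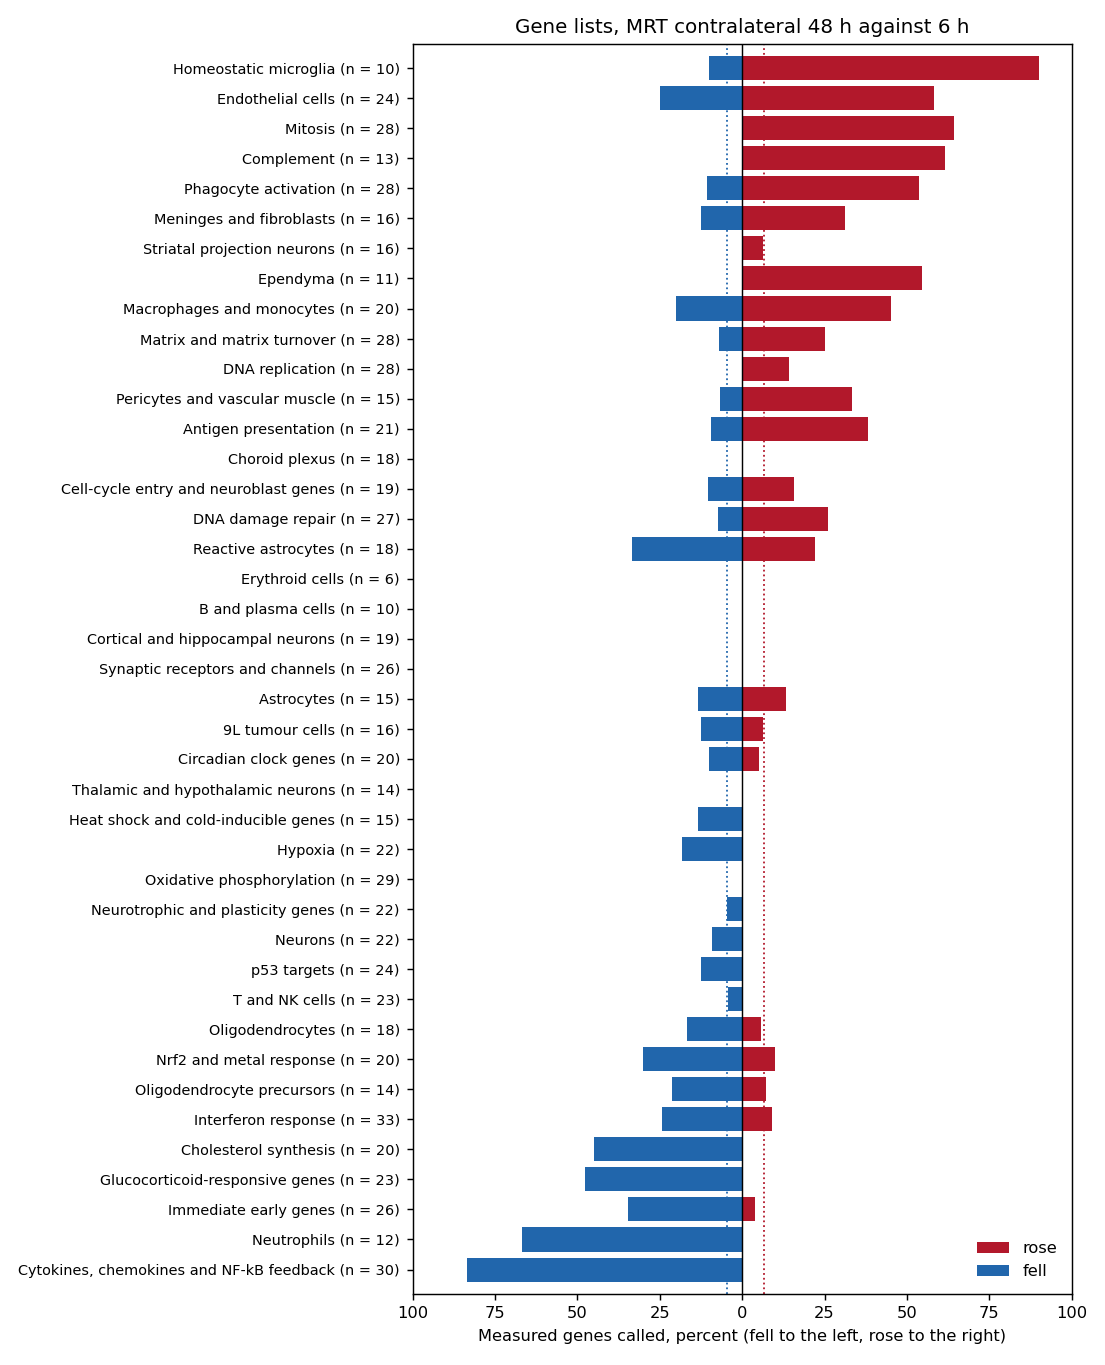
Share of the measured genes of each of 41 lists that rose (right, red) or fell (left, blue) at 48 h against 6 h after MRT, in percent, ordered by the median difference of the list; dotted lines mark the shares over all genes, 6.64% higher and 4.47% lower. Homeostatic microglia (9 of 10) and mitosis genes (18 of 28) have the highest shares of rises and cytokines (25 of 30) and neutrophil markers (8 of 12) the highest shares of falls.

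Untreated tumour-bearing rats at the same times were compared as the control for time. Between 48 h and 6 h they gave 2588 called genes (18.2%) with rat 18, 1584 higher (11.1%) and 1004 lower (7.06%), or 696 higher and 865 lower with all arrays at one median. Without it they gave 15 genes (0.106%), 12 higher (0.0844%) and 3 lower (0.0211%). The change after MRT differed from the change in untreated rats for 1213 genes (8.53%) with rat 18, 418 of them more positive (2.94%) and 795 more negative (5.59%) after MRT. Without it the count was 523 (3.68%), 303 more positive (2.13%) and 220 more negative (1.55%). This test shares its MRT arrays with the comparison above, so it adds a control and no independent evidence. Sele differed by -4.62 ± 0.27 (SE) with rat 18 and -4.55 ± 0.29 without it, Ccl9 by -5.03 and -4.76, Cxcl10 by -4.42 and -4.36, and S100a9 by -4.27 and -4.45, with a highest adjusted p of 5.79e-06 (limma). On the positive side Mgmt differed by 2.26 with and 2.37 without the array, Slamf9 by 2.39 and 2.61, RT1-Bb by 2.38 and 2.66, and Vim by 2.62 and 2.16. P2ry12, at 5.81 in rat 18 and 8.93 to 9.33 in the rest of its group, differed by 3.11 ± 0.52 (SE) with the array and by 2.27 ± 0.41 without it. In the cytokine list 25 of 30 genes differed in the negative direction with rat 18 and 23 without it, and in the endothelial list 12 of 24 differed in the positive direction either way. For the mitosis list the difference from the untreated change was called for 3 of 28 genes, and for 2 without rat 18. For the DNA replication list it was called for 1 of 28 genes, and for 0 without rat 18. Rat 18 had the highest mitosis list mean of its group, 6.81 against 5.73 to 5.83 in the other 3 arrays. Mki67 differed by 1.90 in both fits, with an adjusted p of 0.0437 with rat 18 and 0.117 without it.

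After BB, which delivered a dose close to the MRT valley dose over the whole field, 385 genes (2.71%) were called between 48 h and 6 h, 125 higher (0.879%) and 260 lower (1.83%), or 113 higher and 698 lower with all arrays at one median. The MRT and BB changes differed for 45 genes (0.317%), 34 more positive (0.239%) and 11 more negative (0.0774%) after MRT. Without rat 18 in the fit, 845 genes (5.94%) were called after BB, 294 higher (2.07%) and 551 lower (3.88%), and 117 (0.823%) differed between the beams, 84 more positive (0.591%) and 33 more negative (0.232%). The 3 BB arrays at 48 h limit the precision. In the phagocyte activation list 2 of 28 genes differed, Gpnmb and Lgals3, both more positive after MRT. Clec4a3, from outside that list, ran from 6.51 to 7.16 at 6 h and 6.82 to 7.09 at 48 h after BB, a change of 0.16, so the MRT change exceeded it by 2.25 ± 0.37 (SE; adjusted p = 0.000942). Gpnmb changed by 0.25 after BB (difference of changes 1.99 ± 0.34 SE, adjusted p = 0.00191), Mmp12 by -0.03 (1.98 ± 0.31 SE, adjusted p = 0.00067) and Lgals3 by 0.08 (1.87 ± 0.40 SE, adjusted p = 0.0215). Slamf9 rose after BB too, by 1.05, and the MRT change was larger by 1.64 (SE 0.31). Angpt2 fell by 2.62 after BB, from a range of 8.93 to 9.73 to one of 6.73 to 6.92, so its change was more positive after MRT by 1.69 (SE 0.38, adjusted p = 0.031).

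On the negative side, Cxcl2 at 6 h ran from 5.25 to 6.44 after BB and from 5.86 to 11.01 after MRT, where all arrays but rat 7 lay at or above 8.40. The MRT change was lower than the BB change by 2.76 ± 0.53 (SE; adjusted p = 0.00627). Ccl3, a chemokine of macrophages, differed by -2.31 (adjusted p = 0.031) and Il6, which was dim at 48 h, by -1.55 (adjusted p = 0.0137). Siglec5 and Exoc1 differed by -1.22 and -1.03 because they rose after BB, by 1.30 and 1.02, and had differences of 0.07 and -0.00 after MRT. Efhd1, a mitochondrial calcium-binding protein gene, differed by -0.94.

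For the vascular genes named above no difference between the beams was called except for Angpt2. Slco1a4 rose by 2.38 (SE 0.29) after BB, and the difference from the MRT change was 0.05 with a 95% interval from -0.66 to 0.76. For Emcn the difference was 0.19 (interval -0.39 to 0.77), for Tek 0.37 (-0.10 to 0.83), and for Sele -0.22 (-0.79 to 0.34). Mgmt rose by 1.73 after BB, and its difference of 0.51 (interval 0.11 to 0.91) was not called after adjustment (adjusted p = 0.297). P2ry12 rose by 2.02 after BB, with a difference of 0.24 (-0.84 to 1.31). Ccl2 fell further after BB, by 4.94, to 5.52 to 5.98 against 8.00 to 8.87 after MRT, but the difference of 1.53 (interval 0.38 to 2.68) was not called (adjusted p = 0.279). RT1-Da likewise was not called, with a difference of 1.54 (interval 0.50 to 2.58, adjusted p = 0.217), while RT1-DMb was (1.11 ± 0.25 SE, adjusted p = 0.031).

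**Figure D5:**
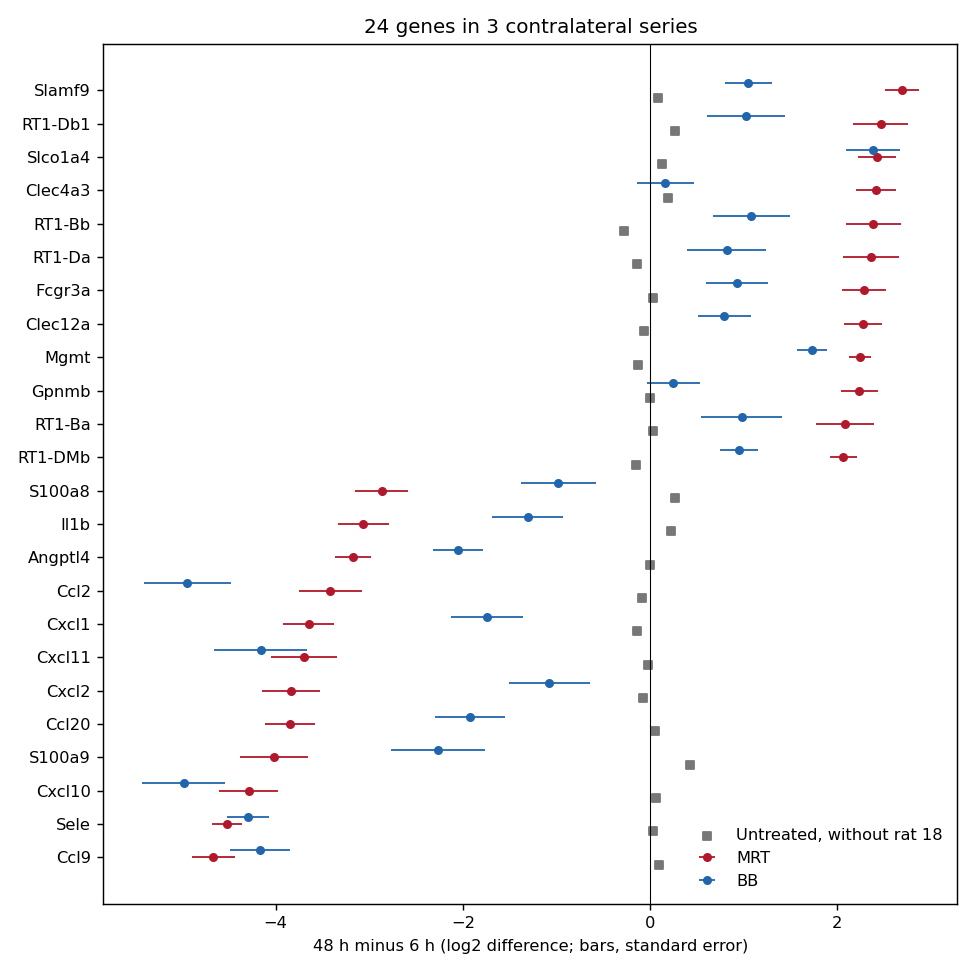
Difference between 48 h and 6 h (log2, horizontal axis) for the 12 largest rises and 12 largest falls after MRT among genes whose arrays did not overlap (red; bars, SE), with the same difference after BB (blue; bars, SE) and in untreated rats without rat 18 (grey squares, no bars). Untreated values lie between -0.28 and 0.43, Slco1a4 is at 2.43 after MRT and 2.38 after BB, and Clec4a3 is at 2.42 after MRT and 0.16 after BB.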

How the data were processed

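Total RNA was hybridised to Affymetrix rat expression arrays, 1 array per sample. The deposited values are linear intensities in whole numbers, and the submitters' processing notes name RMA, MAS5 and Affymetrix Expression Console without saying which made them; log2 was taken here, with no further normalization. limma 3.58.1 in R 4.3.3 (eBayes with an intensity trend) was fitted to 31042 probe sets, without controls, over all 56 contralateral arrays with 1 mean per group, and p-values were adjusted by the Benjamini-Hochberg method over all probe sets. Each of 14217 genes took its brightest probe set. In total 41 gene lists were used. Genes were named from the 12 largest called rises and 12 largest called falls without overlap, from up to 3 called members a direction in each list by moderated statistic (2 where none was called), and from the 6 largest differences a direction between series; Cdkn1a and the tissue markers fall outside this. The members and lists were chosen with earlier results of these data known. Replicates are rats, whose number limits the precision; array handling batches are not given in the sources used here. The fit was tested on simulated data.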

Additional observations from a re-analysis of the deposited data

Results flagged for a closer look

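List means and named chemokines were screened for single arrays that lay far from the rest of their group, over 110 sets of values in groups of 4 to 9 arrays, where chance flags about 1 in 20. In the MRT 6 h group the array of rat 7 was lowest for the cytokine list (7.40, the nearest array 8.40), immediate early genes (8.41, nearest 9.09), glucocorticoid-responsive genes (8.85, nearest 9.15), p53 targets (8.49, nearest 8.67) and cortical and hippocampal neurons (9.19, nearest 9.47), and for Ccl2 (10.34, nearest 11.59) and Cxcl10 (9.73, nearest 10.56). Rat 10 of the same group was highest for astrocyte markers (11.48, nearest 11.24). In the MRT 48 h group rat 19 was highest for DNA replication genes (7.47, nearest 7.29) and lowest for general neuronal markers (11.29, nearest 11.61), and rat 21 was highest for hypoxia genes (9.58, nearest 9.46) and lowest for oligodendrocyte precursors (8.20, nearest 8.25). The array median of untreated 48 h rat 18 was 165, the nearest of its group 125.

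A test of the difference itself picked out 2 comparisons: the MRT change differed from the untreated change for 1213 genes (523 without rat 18), and from the BB change for 45 genes.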

How the results depend on the processing

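Of 136 named genes called in the MRT comparison, 110 were called in every alternative setting run and 26 lost the call in at least 1; no direction reversed, and the 24 largest changes were called in all. No paired analysis was possible because the 6 h and 48 h rats, and those of different treatments, were different animals. Leaving out 1 array at a time gave 1364 to 1748 called genes for MRT, 15 (without rat 18) to 4515 (without rat 17) for untreated rats, 170 to 369 for BB, 523 to 3164 for MRT against untreated and 11 (without BB 48 h rat 50) to 77 (without MRT 6 h rat 7) for MRT against BB. Leaving rat 18 out of the shared fit, chosen after seeing the data, gave 2381 for MRT, 845 for BB and 117 for MRT against BB; leaving out MRT 6 h rats 7 and 10, also chosen then, gave 104 for MRT against BB. Array quality weights gave 3331 for MRT, 20 for untreated, 2582 for BB, 773 for MRT against untreated and 503 for MRT against BB. Fitting only the groups compared gave 1707 for BB, 310 and 122 for the differences from untreated and BB, and 0 for untreated rats (limma; 882 genes at an unadjusted p under 0.05). Without BB arrays, untreated rats gave 994 and the difference from them 640. Bringing all arrays to one median gave 1561 for untreated, 811 for BB and 73 for MRT against BB, and moved the median MRT difference from -0.01 to -0.05. For untreated rats, quantile normalization gave 1136 and leaving out the dimmest 30% of probe sets 1601. For MRT against BB, a Gapdh 3′ to 5′ covariate gave 25 and a choroid plexus covariate 26. The causes were not tested. The 3 BB arrays and 4 untreated arrays at 48 h limit what those comparisons can call.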
